A study of Arabidopsis thaliana with 6 samples.

Results

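The NAC family of Arabidopsis thaliana was followed as the 106 rows of a transcription factor (TF) panel of 1880 rows whose deposited family label reads NAC. Each TF gene had its own primer pair in a quantitative RT-PCR assay, and each row holds 1 mean threshold cycle (Ct) for each of 6 groups, where a lower Ct means more transcript. The groups were the tanmei (tan1-2) mutant, described as impaired in somatic embryogenesis (SE) and non-embryogenic, at 0, 5 and 10 d, and the highly embryogenic wild-type Columbia (Col-0) at the same times. At 0 d the tissue was freshly isolated immature zygotic embryos at the late cotyledonary stage, here called explants, and at 5 and 10 d it was the explants cultured on medium with 5 µM of the auxin 2,4-D. The authors averaged 3 replicates per group and only these means were analysed here, so no difference below could be set against a replicate spread and no test was possible. PCR has no sequencing depth, and with 1 mutant line and 1 mean per group the precision of each value is unknown. In whole tissue, fewer cells of a type and less transcript per cell cannot be told apart.

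NAC proteins are plant-specific TFs named after NAM, ATAF and CUC, and share an N-terminal DNA-binding domain followed by a variable regulatory region. Members set organ boundaries and start the shoot meristem of the embryo, switch on secondary wall synthesis in fibres and xylem vessels, pattern the root cap, and act in senescence and in responses to drought, wounding and DNA damage. A subset is anchored in membranes and released by cleavage.

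The panel was deposited in 5 blocks of 376 rows, and the NAC label stood on 27 rows of block 4 and 79 rows of block 5. A level is given below as the median Ct of the block in that group minus the Ct of the row, on the log2 scale, with an empty Ct set to 40. The RefSeq annotation names 90 of the 106 codes as NAC genes, 9 as homeobox genes (BEL1, RLT2, WOX8, HAT2, HDG7, HB52, WOX2, HB5 and HB53) and 7 without a family name.

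The gene code of a single NAC row could not be taken at face value. Of the NAC codes, 54 also occur in a separate expression table of the study, which lists genes chosen on these same samples. Only 1 of 49 comparable codes had the profile of its own row within 1 cycle of its profile in that table, with a median difference of 4.89 cycles. With the rows put in the order of the panel list, in which families run in alphabetical blocks, 46 of 54 codes found their profile 29 places further on, with a median difference of 0.20 cycles. No other displacement between −60 and 60 places matched more than 3 codes.

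**Figure D1:**
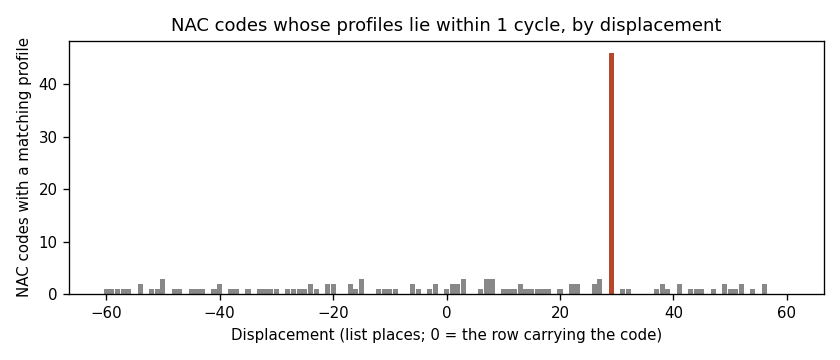
Number of NAC codes (y axis) whose profile in the separate table lay within 1 cycle of a deposited row, by how many list places that row stood from the row carrying the code (x axis). A single bar of 46 codes stands at 29 places, and every other bar is at 3 or fewer.

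The displacement bears on which rows are NAC at all. Among the labelled rows at places 1 to 29 of the family, 8 carried the profile of a code of that separate table, and all 8 of those codes belonged to MYB-related genes. Among the labelled rows at places 30 to 106, 33 carried such a profile, and all 33 codes were NAC. For 1 of these, NAC102, the match stood 1 place on rather than 29, at a difference of 0.797 cycles. Along the whole list the best displacement grew from section to section, with 0 places in the first section of 94 rows and 37 in the last. The list ended with 37 rows labelled as possibly not expressed. Every one of these 37 rows had a Ct in all 6 groups, and their median Ct per group lay between 23.3 and 24.1, against 26.6 to 27.5 over all rows. Whether the codes of one table or of the other are the right ones was not tested. The family is therefore given first by its deposited label and then with each of the 106 codes read 29 places on, a reading in which 77 of the rows carry the NAC label and 29 do not.

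Most NAC rows gave a product in every group. A Ct was present in all 6 groups for 86 of 106 rows (81.1%, against 86.2% of the 1774 rows with other labels), in some groups for 17 rows and in none for 3, whose deposited codes are NAC003, NAC027 and CUC3. Under the stricter limit of a Ct below 35 in all 6 groups, 80 NAC rows (75.5%) passed, against 74.1% of the rows with other labels. Read 29 places on, 83 codes passed, and 2 codes (AT1G02210 and NAC006) fell on rows without any Ct.

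Fewer NAC products were recorded in Col-0 explants than in the other groups. A Ct was recorded for 97 of 106 rows in tanmei explants and for 99 rows at each culture time. For Col-0 the explants had 91 rows with a Ct, the 5 d culture 99 and the 10 d culture 97. Of the 1774 rows with other labels, 1662, 1655 and 1684 had a Ct in tanmei at 0, 5 and 10 d. In Col-0 these were 1657, 1676 and 1687. In 3 NAC rows tanmei explants gave no Ct while both tanmei culture times did, a share of 2.83% against 3.1% of the rows with other labels. The same held for Col-0 in 7 rows, a share of 6.6% against 3.33%.

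Levels of the 2 stretches of the family are each relative to their own block, so they cannot be compared between blocks. The median Ct of the labelled rows of block 4 was 26.6, 28.6 and 28.8 in tanmei at 0, 5 and 10 d. In Col-0 it was 28.5, 28.6 and 28.4. For block 5 the median Ct was 28.4, 26 and 25.1 in tanmei, and 29.5, 26.3 and 25.8 in Col-0. The 27 labelled rows of block 4 had median levels of 4.25, 3.40 and 3.06 in tanmei at 0, 5 and 10 d, and of 3.36, 2.88 and 2.02 in Col-0. The 79 labelled rows of block 5 had median levels of −2.46, −1.09 and −0.62 in tanmei, and of −2.46, −1.52 and −1.30 in Col-0. The block 5 rows thus lay below the middle of their block in all 6 groups and nearer to it in both cultures than in either explant. The 297 rows of block 5 with other labels had medians of 0.85 in tanmei explants and 0.46 in Col-0 explants.

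**Figure D2:**
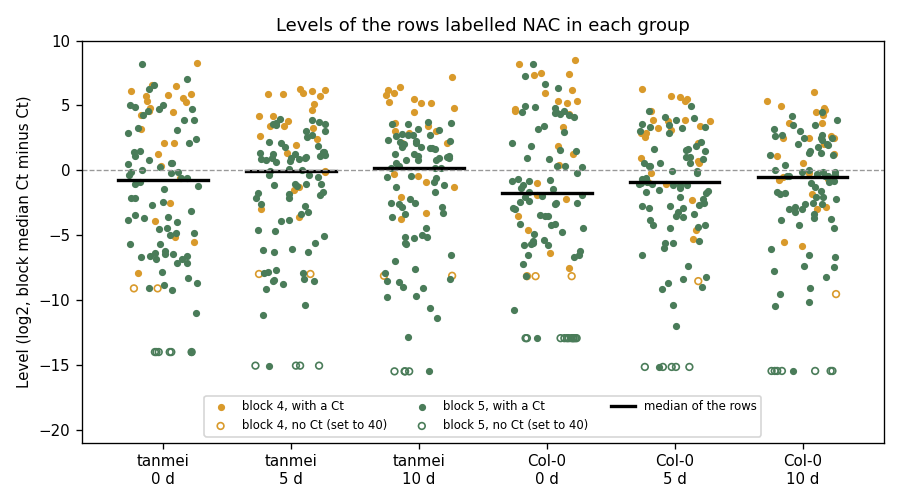
Level of each of the 106 rows labelled NAC (y axis, log2, block median Ct minus Ct) in the 6 groups (x axis). Points are rows, coloured by block, open points are rows with no Ct set to 40, and black bars are medians, of which the highest is 0.19 in tanmei at 10 d and the lowest −1.77 in Col-0 explants.

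Culture of the explants was accompanied by changes in most of the family, in both directions. In tanmei at 5 d, 36 of 101 labelled rows with a Ct in either group exceeded the explants by at least 2-fold, as did 28.7% of all rows, and 41 fell short of them by at least 2-fold, as did 39.4% of all rows. At 10 d in tanmei 38 of 101 were higher (all rows 31.1%) and 40 were lower (all rows 37.4%). In Col-0 at 5 d, 39 of 100 were higher (all rows 28.9%) and 40 were lower (all rows 38%). At 10 d in Col-0 37 of 99 were higher (all rows 29%) and 46 were lower (all rows 41.1%). The upward share of the NAC rows thus lay above that of all rows in each of these 4 comparisons, and the downward share lay closer to it.

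Their share of large rises was also above that of all rows. At least 10-fold higher levels were seen in 20 NAC rows of tanmei at 5 d (19.8%, all rows 11.6%) and in 21 rows at 10 d (20.8%, all rows 13.8%). In Col-0 they were seen in 19 rows at 5 d (19%, all rows 11.1%) and in 16 rows at 10 d (16.2%, all rows 12.8%). This excess was not confined to the stretch whose matched profiles are NAC. Among the 28 rows tested at places 1 to 29, where the matched profiles are MYB-related, the share was 21.4% in tanmei at both times. In Col-0 it was 21.4% at 5 d and 17.9% at 10 d there. From place 30 on the shares were 19.2% and 20.5% in tanmei, and 18.1% and 15.5% in Col-0. Rows at least 10-fold lower numbered 13 and 9 in tanmei at 5 and 10 d, against 11 and 13 in Col-0, where all rows gave 11.1% and 12.4% in tanmei and 10.1% and 11.2% in Col-0.

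The split between higher and lower rows followed the scaling. With block medians, rows at least 2-fold higher made up 46.8% and 48.7% of the changed NAC rows in tanmei at 5 and 10 d, and 49.4% and 44.6% in Col-0. Over all rows 524 of 1243 and 570 of 1254 changed rows were higher in tanmei, and 527 of 1220 and 530 of 1282 in Col-0. Against the median of the whole column they made up 67.1% and 75% in tanmei, and 68.5% and 68.6% in Col-0. With raw Ct values they made up 56.4% and 62.8% in tanmei, and 73.3% and 78.4% in Col-0. With medians of the rows below Ct 35 in all groups they made up 57.1% and 58.9% in tanmei, and 59.5% and 56.4% in Col-0. The shares of all rows under these other scalings are not given, so the shares here are not a result about the family. The median Ct of block 5 stood at 26.0, 24.9 and 24.5 in tanmei at 0, 5 and 10 d and at 27.0, 24.8 and 24.5 in Col-0, so the direction of a change in block 5 is relative to a block whose median itself moved.

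A comparison inside block 5 does not depend on the scaling. There the labelled NAC rows changed by a median of 0.06 in tanmei at 5 d and the other rows by −1.35, a difference of 1.41 on the log2 scale. At 10 d in tanmei the medians were −0.09 and −1.47, a difference of 1.38. In Col-0 the medians were −0.24 and −1.35 at 5 d, a difference of 1.11, and −0.32 and −1.29 at 10 d, a difference of 0.98. NAC rows of block 5 therefore stood higher relative to their block mates in culture than in explants, in both genotypes and at both times. With only rows below Ct 35 in both groups the differences were 1.32 and 1.45 in tanmei at 5 and 10 d, and 0.60 and 0.73 in Col-0. Read 29 places on, they were 1.73 and 1.85 in tanmei at 5 and 10 d, and 1.58 and 1.75 in Col-0.

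Counts inside block 5, taken with block medians, gave the same picture but do depend on the scaling. At least 2-fold higher were 38.7% of the NAC rows and 23.3% of the other rows in tanmei at 5 d, and 41.3% and 25.4% at 10 d. In Col-0 the shares were 40.5% of the NAC rows and 22.2% of the others at 5 d, and 39.7% and 23.5% at 10 d. The other rows began at higher levels in the explants, as given above, and the part of the starting level in this difference was not tested. The 27 labelled rows of block 4, the stretch whose matched profiles are MYB-related, differed from the other rows of their block by 0.26 and −0.12 in tanmei and by 0.17 and −0.14 in Col-0, at 5 and 10 d.

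**Figure D3:**
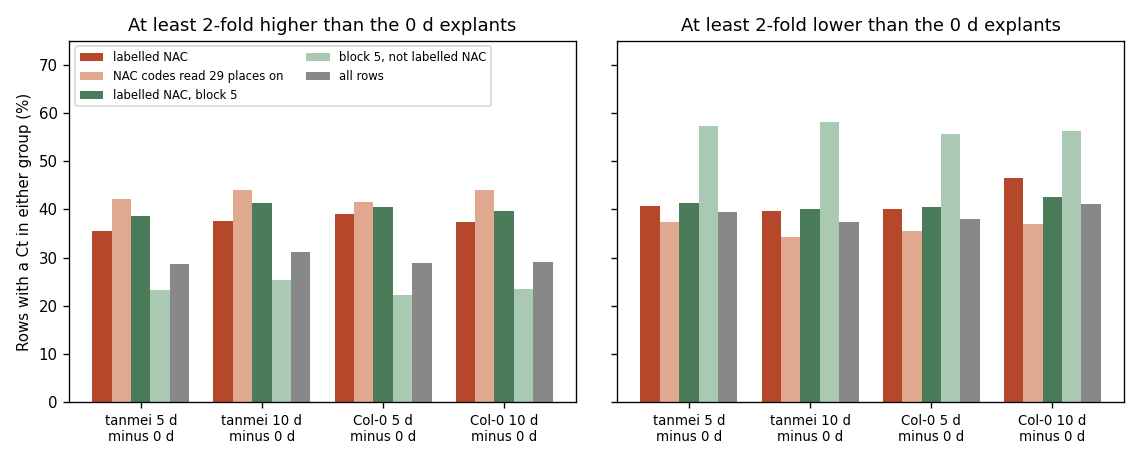
Share of rows (y axis, percent of the rows with a Ct in either group) at least 2-fold higher (left) or lower (right) than in 0 d explants, for tanmei and Col-0 at 5 and 10 d (x axis). Within block 5 the NAC rows exceed the other rows among the higher ones (38.7% against 23.3% in tanmei at 5 d) and stay below them among the lower ones.

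Hardly any NAC row stayed within 2-fold in all 4 comparisons of culture with explants. Only 1 of 103 labelled rows did (0.971%), against 188 of 1750 rows with other labels (10.7%) and 6 of 294 other rows of block 5 (2.04%), so much of that gap goes with the block. At least 2-fold higher in both genotypes at both times were 23 NAC rows (22.3%), against 16.1% of the rows with other labels and 14.6% of the other rows of block 5. At least 2-fold lower in all 4 were 22 (21.4%), against 21.4% of the rows with other labels and 43.5% of the other rows of block 5. Between 5 and 10 d fewer rows moved: 33 of 101 NAC rows passed 2-fold in either direction in tanmei (all rows 35.6%), and 38 of 101 in Col-0 (all rows 35.5%).

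The genotypes differed in many NAC rows without a common direction. In explants 28 of 100 labelled rows were at least 2-fold higher in tanmei than in Col-0 (all rows 24.6%) and 24 were lower (all rows 22%). At 5 d 33 of 103 were higher in tanmei (all rows 24.1%) and 27 were lower (all rows 22.1%). At 10 d 34 of 100 were higher (all rows 28.7%) and 19 were lower (all rows 22.4%). The median differences were −0.03, 0.22 and 0.38 at 0, 5 and 10 d over the NAC rows, and 0.02, 0.08 and 0.21 over all rows.

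Inside block 5 the tanmei minus Col-0 medians were 0.04, −0.01 and 0.02 for NAC rows and −0.08, −0.04 and −0.25 for the other rows. These are medians of the differences row by row, whereas the medians of the levels given above differed more at 5 and 10 d, and single rows spread widely. In block 5, 26 of 77 NAC rows (33.8%) had a 5 d change at least 2-fold more positive in tanmei than in Col-0 and 26 had one at least 2-fold more negative, against 22.9% and 23.2% of the other rows there and 24.8% and 27.4% of all rows. With raw Ct values 82.5% of the NAC rows that differed in explants were higher in tanmei, where the median of all rows was itself 0.83 higher, against 53.8% with block medians.

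A minority of rows moved in opposite directions in the 2 genotypes. At 5 d 10 of 103 NAC rows (9.71%) were at least 2-fold higher in one genotype and at least 2-fold lower in the other, against 5.2% of the rows with other labels and 3.74% of the other rows of block 5. At 10 d there were 11 such NAC rows (10.7%), against 5.71% and 4.08%. The higher genotype was tanmei in 6 of the 10 rows at 5 d and in 7 of the 11 at 10 d. Among the rows with other labels it was tanmei in 54 of 91 and in 61 of 100, a similar balance. This balance followed the scaling: with raw Ct values there were 13 such rows at 5 d (12.6%, against 5.94% and 3.06%), 4 of them higher in tanmei, and 6 at 10 d (5.83%, against 8.69% and 4.42%), 1 of them higher in tanmei. The rows with other labels were then higher in tanmei in 27 of 104 at 5 d and in 23 of 152 at 10 d.

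**Figure D4:**
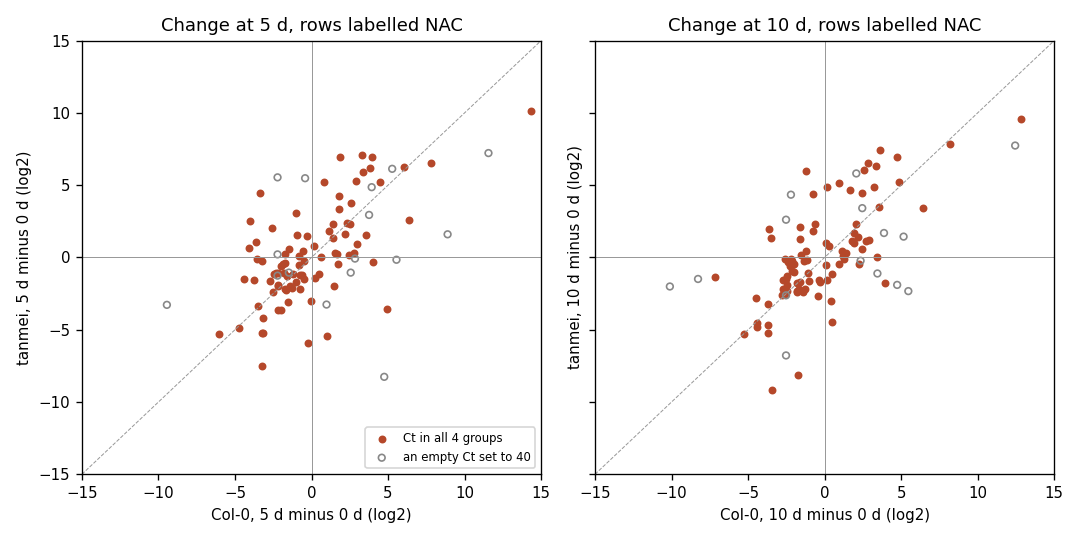
Change of each labelled NAC row with a Ct in at least 1 of the 4 groups, in tanmei (y axis) and in Col-0 (x axis), log2, culture minus explants, at 5 d (left) and 10 d (right). The dashed line marks equal change, from which 68 of 103 rows at 5 d and 67 of 102 at 10 d lie at least 2-fold away, and 10 rows at 5 d and 11 at 10 d differ in sign by at least 2-fold on both axes, while open points have an empty Ct set to 40.

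Named genes are given from here on by the profile that stands 29 places after their code, since 29 of the 59 list genes found among the codes had that profile within 1 cycle in the separate table, and these are called linked genes. Of the 59 genes, 33 are listed in that table. A gene called not linked is thus either absent from it or listed there without a match within 1 cycle. A gene absent from that table is placed by its neighbours only. For a gene listed there without a match, the table does not bear out the profile given here. These cases are not told apart below. Linked genes were chosen by the study on these samples, so their number with a change is no independent evidence. All 106 codes read this way lay in block 5. By this reading 42.2% of the codes were at least 2-fold higher and 37.3% lower in tanmei at 5 d, 44.1% and 34.3% at 10 d, 41.6% and 35.6% in Col-0 at 5 d, and 44% and 37% at 10 d. Over all rows of block 5, 26.4% were higher and 54% lower in tanmei at 5 d, 28.7% and 54.4% at 10 d, 25.9% and 52.6% in Col-0 at 5 d, and 26.8% and 53.6% at 10 d. Each level is relative to the block median, whose Ct was lower in culture, so with raw Ct values every change in culture is more positive. The counts under the deposited codes are given beside each list, because several of them differ.

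Among the boundary and meristem genes 3 of 6 were at least 2-fold higher and 2 lower in tanmei than in Col-0 at 5 d. In tanmei at 5 d the level had risen at least 2-fold in 4 of 6 and fallen in 2, while in Col-0 it had risen in 0 and fallen in 3. With raw Ct values the tanmei counts were the same, but in Col-0 3 had risen and 2 fallen. CUC1, a linked gene that sets organ boundaries and helps to form the shoot meristem of the embryo, had Ct values of 25.16, 29.57 and 28.12 in tanmei at 0, 5 and 10 d and of 27.68, 24.48 and 24.68 in Col-0. Its level thus changed by −5.46 and −4.45 in tanmei cultures and by 0.98 and 0.48 in Col-0, with tanmei minus Col-0 differences of −4.99 and −3.48 at 5 and 10 d.

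CUC3, which acts with CUC1 and is not linked, had Ct values of 26.38, 31.27 and 33.00 in tanmei and of 27.89, 25.88 and 27.09 in Col-0. It too was low in tanmei cultures alone, with tanmei minus Col-0 differences of 0.44, −5.29 and −5.94. CUC2, linked and partly redundant with CUC1, had 28.32, 26.09 and 24.60 in tanmei and 28.91, 26.85 and 24.53 in Col-0, and differed by less than 2-fold between the genotypes at all 3 times.

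The other 3 genes of the list were not linked and went the opposite way. NAC1, which acts in auxin-dependent lateral root formation, had Ct values of 31.68, 26.18 and 25.79 in tanmei and of 27.86, 29.01 and 26.13 in Col-0, a 5 d change of 4.45 in tanmei and of −3.37 in Col-0. ANAC100, a target of the microRNA that also restrains CUC1 and CUC2, had 29.91, 26.31 and 25.73 in tanmei and 30.80, 31.76 and 29.71 in Col-0. It stood 5.54 and 3.94 higher in tanmei than in Col-0 at 5 and 10 d, and ANAC080, its close relative, 3.52 and 3.61 higher. Under the deposited codes 3 of 5 genes of the list were higher and 2 lower in Col-0 at 5 d, and none differed 2-fold between the genotypes at that time.

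Genes of the xylem vessel programme, counted together with its inhibitors, were more often higher than lower in culture. A level raised at least 2-fold was seen for 5 of 10 in tanmei at both times and a lowered one for 2, against 6 raised and 1 lowered in Col-0 at 5 d and 8 raised and 2 lowered at 10 d. VND7, a linked master switch of vessel formation, had Ct values of 29.41, 26.04 and 25.63 in tanmei and of 29.53, 25.93 and 24.94 in Col-0. Its level was higher by 2.32 and 2.30 in tanmei and by 1.39 and 2.08 in Col-0. VND4, linked and of the same subgroup, had 34.85, 26.82 and 27.31 in tanmei and 31.81, 27.75 and 26.72 in Col-0, with the larger change in tanmei (6.97 and 6.05 against 1.84 and 2.56).

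Inhibitors of vessel formation did not move together. XND1, linked, which represses xylem differentiation, had Ct values of 22.46, 27.31 and 26.48 in tanmei and of 20.91, 22.70 and 22.94 in Col-0, and changed by −5.91 and −5.52 in tanmei and by −4.02 and −4.56 in Col-0. VNI2, linked, which binds VND7 and represses its activity, had 23.56, 20.95 and 20.95 in tanmei and 27.27, 21.51 and 22.05 in Col-0, and was higher by 1.55 and 1.13 in tanmei and by 3.55 and 2.70 in Col-0. VND6 had no Ct in either explant and Ct values of 28.07 and 28.17 in tanmei and of 30.03 and 27.25 in Col-0 at 5 and 10 d, and is given no fold. Taken at face value, the codes gave the opposite balance in 3 of the 4 comparisons: 2 of 10 higher and 3 lower in tanmei at 5 d, 2 and 4 at 10 d, 4 and 3 in Col-0 at 5 d, and 4 and 5 at 10 d.

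The secondary wall genes of fibres and the root cap genes also lay on the high side in culture. SND2, a linked gene that acts in fibre wall synthesis, had 32.23, 28.79 and 29.51 in tanmei and 33.72, 29.17 and 28.29 in Col-0, and was higher by 2.38 and 1.23 in tanmei and by 2.33 and 2.92 in Col-0. NST1, a linked switch of wall thickening, had 35.25, 31.26 and 32.07 in tanmei and 34.02 and 33.60 in Col-0 cultures, with no Ct in Col-0 explants. Over the 4 genes of the fibre list, 3 were higher and 1 lower in tanmei at 5 d and all 3 tested were higher in Col-0. At 10 d 2 of 4 were higher and 1 lower in tanmei, and all 4 were higher in Col-0. The deposited codes gave 2 of 4 higher in tanmei and 3 of 4 in Col-0 at both times.

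SMB, a linked regulator of root cap maturation, had Ct values of 24.61, 21.24 and 21.70 in tanmei and of 24.97, 20.27 and 20.30 in Col-0. BRN1, its linked relative, had 28.64, 21.35 and 23.72 in tanmei and 31.16, 22.92 and 22.20 in Col-0, changes of 6.24 and 3.43 in tanmei and of 6.02 and 6.44 in Col-0. BRN1 was thus among the 5 largest rises at 5 d in both genotypes, counted over codes below Ct 35. By the displaced reading all root cap genes tested were higher, 3 in tanmei at 5 d and 2 in each other comparison. FEZ was tested in tanmei at 5 d alone, where its Ct of 33.41 was its only one. At face value none of the 3 root cap genes was higher in any culture.

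The stress-responsive clade around ATAF1 and RD26 was lower in culture relative to the median of block 5. All 7 genes were at least 2-fold lower in tanmei at 5 d and 5 of 7 at 10 d, against 6 of 7 in Col-0 at both times, and 0 were higher in any of the 4 comparisons. ATAF1, a linked regulator of abscisic acid and drought responses, had Ct values of 17.75, 21.93 and 20.92 in tanmei and of 18.83, 19.86 and 20.01 in Col-0. It was the NAC code with the highest mean level of those with a Ct in all groups and changed by −5.24 and −4.66 in tanmei and by −3.25 and −3.70 in Col-0.

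RD26, linked and induced by dehydration in leaves, had 19.41, 23.69 and 22.74 in tanmei and 20.69, 24.49 and 22.57 in Col-0, and changed by −5.33 and −4.82 in tanmei and by −6.02 and −4.40 in Col-0. ANAC032, not linked, changed by −5.25 at both times in tanmei and by −3.20 and −3.73 in Col-0. The list median at 5 d was −4.21 in tanmei and −3.20 in Col-0, where the median over all 106 codes read the same way was 0.21 and 0.08. Under the deposited codes 3 of the 7 were higher and 4 lower at 5 d in each genotype, so the common direction depends on the displaced reading. It depends on the scaling too. With raw Ct values 4 of 7 were lower and 0 higher in tanmei at 5 d, and 3 lower and 1 higher at 10 d, against 3 lower and 1 higher in Col-0 at 5 d and 3 lower and 2 higher at 10 d. The list medians were then −3.15 and −0.90 in tanmei and −0.98 and 0.37 in Col-0, where the last had been −2.15 with block medians.

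Membrane-bound NAC genes were also lower relative to the median of block 5. Of 11 genes, 10 were lower and 0 higher in tanmei at 5 d, and 9 lower and 1 higher at 10 d, against 8 lower and 1 higher in Col-0 at both times. With raw Ct values 6 were lower and 1 higher in tanmei at 5 d, and 4 lower and 1 higher at 10 d, against 2 lower and 3 higher in Col-0 at 5 d and 1 lower and 4 higher at 10 d. The list medians were −2.12 and −2.21 in tanmei and −2.28 and −1.97 in Col-0 with block medians, and −1.07, −0.72, −0.06 and 0.55 in the same order with raw values. ANAC091, also called TIP, a linked gene known from its interaction with a viral coat protein, had Ct values of 19.36, 22.62 and 22.31 in tanmei and of 20.09, 21.84 and 21.43 in Col-0. ANAC060, not linked, which acts in sugar and abscisic acid signalling, had 21.27, 27.71 and 28.97 in tanmei and 22.14, 23.19 and 23.03 in Col-0. Its fall was much the larger in tanmei (−7.49 and −9.19, against −3.26 and −3.41 in Col-0).

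NTL8, not linked, a regulator of salt responses in germination, was the member that was higher in Col-0 cultures. It had Ct values of 30.79, 33.31 and 31.05 in tanmei and of 35.20, 28.04 and 28.74 in Col-0. Its level changed by −3.57 in tanmei and by 4.94 in Col-0 at 5 d, and the Col-0 explant lay above Ct 35. The deposited codes gave 4 of 11 membrane-bound genes lower and 3 higher in tanmei at 5 d, and 2 of 9 lower and 4 higher in Col-0.

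Senescence-associated genes split within the list relative to the median of block 5. In tanmei 4 of 7 were higher and 1 lower at 5 d, and 5 higher and 0 lower at 10 d. In Col-0 3 were higher and 3 lower at 5 d, and 3 higher and 2 lower at 10 d. With raw Ct values 5 were higher and 0 lower in tanmei at 5 d, and 7 higher and 0 lower at 10 d. Raw values in Col-0 gave 5 higher and 1 lower at 5 d, and 6 higher and 0 lower at 10 d. ANAC046, a linked gene that promotes chlorophyll breakdown, had 29.70, 25.26 and 23.73 in tanmei and 30.47, 26.43 and 25.50 in Col-0, and was higher by 3.38 and 4.48 in tanmei and by 1.82 and 2.45 in Col-0. NAP, linked, a promoter of leaf senescence, had 25.42, 23.73 and 21.80 in tanmei and 24.12, 25.98 and 23.19 in Col-0. Its level changed by 0.63 and 2.13 in tanmei and by −4.08 and −1.59 in Col-0.

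ANAC016, not linked, known from chlorophyll breakdown and drought responses, had Ct values of 32.42, 28.30 and 24.98 in tanmei and of 26.72, 25.52 and 25.41 in Col-0. Among codes below Ct 35 in both explants it had the largest genotype difference, −6.76 for tanmei minus Col-0, and at 10 d the difference was 0.40. Read at face value, 2 of the 7 were higher in tanmei and 1 in Col-0 at 5 d.

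The genes known from tissue reunion and sieve elements held the largest rise among the codes with a Ct in all groups. ANAC071, a linked gene that is needed for the rejoining of cut stems, had Ct values of 32.33, 21.18 and 21.30 in tanmei and of 37.86, 21.32 and 22.50 in Col-0. ANAC071 was only just linked, at 0.949 cycles, against a median of 0.196 over the NAC codes compared. Its level was higher by 10.10 and 9.55 in tanmei and by 14.32 and 12.84 in Col-0, where the explant Ct lay near the end of the run. ANAC096, not linked, which acts with ANAC071 in tissue repair, was higher by 4.22 and 5.36 in tanmei and by 3.47 and 3.21 in Col-0.

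ANAC086, linked, which directs the loss of the nucleus in sieve elements, had 30.40, 28.33 and 27.79 in tanmei and 35.08, 27.70 and 26.88 in Col-0. It was higher by 1.01 and 1.12 in tanmei and by 5.17 and 5.68 in Col-0, and its explants differed by 3.62. Over the list 4 of 5 genes were higher at 5 d in each genotype. Under the deposited codes none was higher and 5 in tanmei and 3 in Col-0 were lower. The profile given here to ANAC071 stands on the row that carries the deposited code of CUC2, so the same values would be those of CUC2 at face value.

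Genes of DNA damage, protein folding stress and seed development differed between the genotypes in single members. SOG1, linked, the central TF of the plant DNA damage response, had 23.89, 25.02 and 23.95 in tanmei and 25.21, 23.76 and 22.50 in Col-0, and changed by −2.18 and −1.54 in tanmei and by −0.77 and 0.18 in Col-0. ANAC044, a linked relative of SOG1, had 27.44, 25.44 and 25.39 in tanmei and 29.44, 24.27 and 24.48 in Col-0, with changes of 0.95 and 0.56 in tanmei and of 2.95 and 2.44 in Col-0. ANAC103, linked, a factor of the response to misfolded proteins, had 24.65, 22.51 and 22.83 in tanmei and 28.92, 22.66 and 23.23 in Col-0. All 3 had a more positive change in Col-0, and ANAC103 stood 3.20 higher in tanmei than in Col-0 explants. With face-value codes this list had 2 of 4 higher at 5 d in each genotype, against 1 in tanmei and 2 in Col-0 by the displaced reading.

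NARS1, linked, which acts in the seed coat during embryo growth, had 26.55, 23.98 and 22.78 in tanmei and 26.80, 24.85 and 24.87 in Col-0. It was higher by 1.51 and 2.28 in tanmei cultures and changed by −0.27 and −0.60 in Col-0. NARS2, not linked, had a 5 d change of 2.03 in tanmei and of −2.56 in Col-0. At face value 0 of these 2 genes were higher in tanmei at 5 d and 1 in Col-0.

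**Figure D5:**
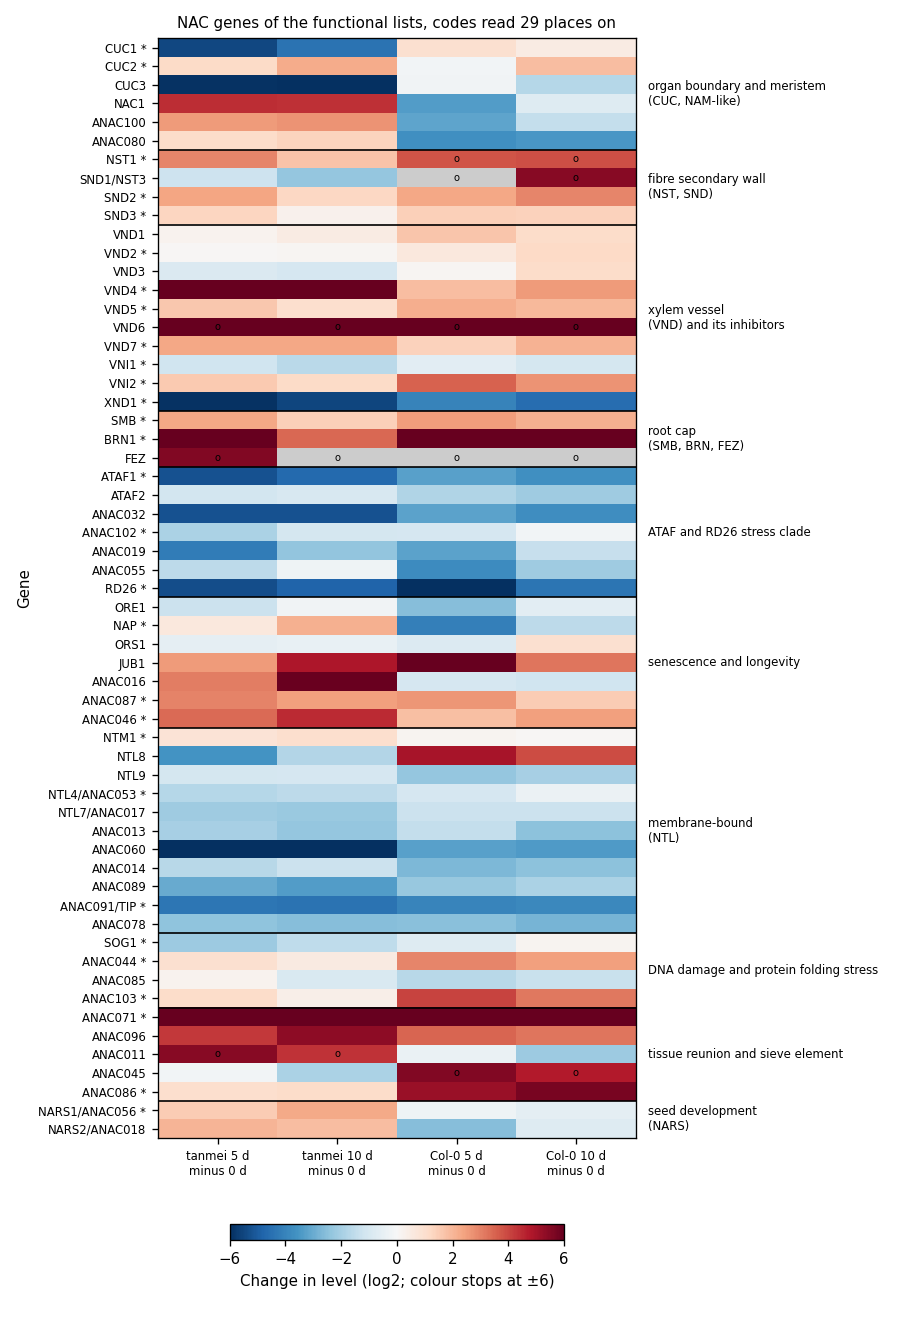
Change in level (colour, log2, culture minus 0 d explants, stopped at ±6) of the 59 NAC list genes (rows, grouped by list) in tanmei and Col-0 at 5 and 10 d (columns), with codes read 29 places on. Asterisks mark the 29 linked genes, o an empty Ct set to 40 and grey cells no Ct in either group, and the ATAF and membrane-bound lists are mostly blue in all 4 columns while CUC1 and CUC3 are dark blue in tanmei alone.

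The embryo identity of the explants was checked on rows at the start of the panel list, where the codes of both tables matched without displacement. The embryo maturation regulators ABI3 and FUS3 had Ct values of 19.3 and 18.3 in tanmei explants and of 18.1 and 20.1 in Col-0 explants, between the 94.4th and the 98.7th percentile of all levels. LEC2, another such regulator and close to them in the list, had 26.9 in tanmei and 28.9 in Col-0 explants, at the 40.1th and 36.4th percentile. The other 6 genes of the marker list stand further on, and 5 of them, all but WRI1, in sections where the codes were displaced. WRI1, which drives oil synthesis, ABI5 and LEC1 lay between the 70.2th and the 96.4th percentile, L1L and bZIP67 between the 36.9th and the 55.1th, and EEL had a Ct of 35.5 in tanmei explants and none in Col-0. The marker list as a whole was therefore not uniformly high. In the cultures ABI3 stood at 25.7 and 31 in tanmei and at 18.8 and 19.6 in Col-0 at 5 and 10 d, and FUS3 at 25.8 and 28.2 in tanmei and at 20 and 21.1 in Col-0. LEC2 stood at 32.6 and 33.6 in tanmei and at 27.7 and 27.2 in Col-0. These 3 maturation genes thus differed between the cultures along with the NAC genes named above, and their part in the NAC differences was not tested.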

How the data were processed

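The authors deposited mean Ct values in PCR cycles (quantitative RT-PCR, SYBR Green, 3 replicates averaged per group), not set against a reference gene; these were used as the measurement, and a cell without a Ct was set to 40. Further deposited columns hold the authors' own fold changes and were not used. No other column of sample values was left out (0). Each Ct was subtracted from the median of its block of 376 rows in that group; a change is a difference of 2 such levels, over rows with a Ct in either group, counted at 2-fold and 10-fold. With 1 mean per group no test was made. Profiles were compared with a separate expression table of the study over at least 4 groups, as root mean square differences after the median offset of each block and group was taken out. All 106 codes matched the RefSeq gene table of TAIR10.1, used for names only. No coordinates or sequences are given.

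Members, 10 functional lists (62 genes, 59 found) and alternatives were chosen with earlier results of these data known. Genes named are list members, the 5 largest rises and falls per comparison below Ct 35, the 5 highest and lowest levels, rows without a Ct, and codes with opposite changes in the genotypes, the last chosen after seeing the data. The displaced reading, the comparison within block 5 and the lists on raw Ct values were chosen after seeing the data. Alternatives covered scaling, empty Ct values, low levels, membership and each block left out. The counting and displacement steps were tested on simulated data. Python 3.11.15, numpy 2.4.6, pandas 2.3.3 and matplotlib 3.10.9 were used.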

Additional observations from a re-analysis of the deposited data

Results flagged for a closer look

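All 106 codes were screened, in both readings, for profiles in which every Ct compared was under 35 and the level was at least 2-fold higher in one genotype and at least 2-fold lower in the other, culture against explants. With 1 mean per group these differences between genotypes, tanmei change minus Col-0 change on the log2 scale, were not tested. A row and the code 29 places before it share 1 profile, so most profiles appear under 2 names. The profile on the row coded NAC044, which the displaced reading gives to ANAC016, differed by 4.08 at 5 d (3.06 in tanmei and −1.02 in Col-0) and by 7.16 at 10 d (5.95 and −1.21). That on the row of NAC048, by displacement NAC1, differed by 7.82 at 5 d (4.45 in tanmei and −3.37 in Col-0). The profile on the row of XND1, by displacement ANAC080, differed by 4.74 at 5 d and 4.83 at 10 d, and that on the row of NAC046, by displacement NARS2 (also called NAM), by 4.59 at 5 d. The row of NAC060, by displacement NAP, differed by 3.72 at 10 d, and the row of VND7, by displacement NAC005, by 2.89 at 10 d. The row of NAC024, one of the first 29 labelled rows, differed by 6.58 at 5 d and 5.63 at 10 d. On rows outside the label, reached by the displaced reading, ANAC100 differed by 5.72 at 5 d and 4.12 at 10 d and the homeobox code WOX2 by 5.84 at 10 d. Relative to the block median, the change was positive in tanmei and negative in Col-0 in all of these. In some the raw Col-0 Ct nevertheless fell from explants to culture, which means more product. On the row of NAC044 it went from 26.72 to 25.52 and 25.41 at 5 and 10 d. At 10 d it went from 24.12 to 23.19 on the row of NAC060, from 32.80 to 31.88 on that of VND7, and from 30.80 to 29.71 for ANAC100. In the remaining cases the raw Col-0 Ct rose. The change relative to the block median ran the other way on the row of AT3G04410, by displacement NAC020, with a difference of −3.48 at 5 d. It also did so for the homeobox code HB52, by displacement, with −5.37 at 5 d (−2.09 in tanmei and 3.28 in Col-0). Under the deposited codes 5 of 6 such profiles at 5 d and 5 of 5 at 10 d were thus higher in tanmei, and by the displaced reading 5 of 7 and 6 of 6, a balance that raw Ct values turned round over all labelled rows, as given above. Rows with other labels, taken without the limit of Ct 35, also leaned to tanmei, in 54 of 91 at 5 d and in 61 of 100 at 10 d.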

How the results depend on the processing

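No paired analysis was possible because each group holds 1 mean. Across all alternatives for the counts of NAC rows past 2-fold, 154 of 165 stayed within 1.5 times the count reported, and 11 did not. Those 11 came from leaving out block 5, which removes 79 of the 106 rows: 17, 17 and 6 rows then passed in tanmei (5 d and 10 d against 0 d, and 10 d against 5 d), 19, 23 and 7 in Col-0, 9, 11 and 12 between tanmei and Col-0 at 0, 5 and 10 d, and 16 and 15 for the difference of the 5 d and 10 d changes. The median over the labelled rows changed sign, without having passed 2-fold, under 54 of 165 alternatives, so no direction of the whole family against 0 is given. Within block 5 the difference in Col-0 was 0.60 at 5 d when only rows below Ct 35 in both groups were kept, and 1.75 at 10 d with codes read 29 places on. With raw Ct values 5 list medians past 2-fold under that reading turned in direction, all in Col-0: the boundary list to 0.52 at 5 d and 1.41 at 10 d, the ATAF list to 0.37 and the membrane-bound list to 0.55 at 10 d, and the seed list to 0.80 at 5 d. With those codes, the genes higher in Col-0 at 5 d numbered 0 in the boundary list, 2 in the root cap list, 0 in the ATAF list, 3 in the senescence list, 1 in the membrane-bound list, 4 in the tissue reunion list and 0 in the seed list. Where raw Ct values or column medians were used, the higher share of changed NAC rows moved by over 10 percentage points in further comparisons: to 75% in tanmei between 10 and 5 d under both, and with raw values to 59.5% in Col-0 between 10 and 5 d, 51.9% for tanmei against Col-0 at 10 d, and 29.3% and 26.6% for the difference of the 5 d and 10 d changes. With block medians taken without NAC rows it was 42.4% for tanmei against Col-0 in explants and 65.6% for the difference of the 10 d changes. The shares of all rows under these settings are not given. With raw values the median of all rows was 0.83 for tanmei against Col-0 in explants and −1.48 for the difference of the 10 d changes, against 0.02 and 0.10 with block medians. Signal near Ct 35 and above, empty cells set to 40 and unseen replicate spread limit every value.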
